A study of Mus musculus with 8 samples.

Results

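Voltage-gated sodium channels are built from a large pore-forming alpha subunit and smaller beta subunits, and 8 genes of these families were followed here in the ventricles of mouse embryos. They are the alpha family genes *Scn10a*, *Scn1a*, *Scn3a*, *Scn4a* and *Scn7a* and the beta subunit genes *Scn2b*, *Scn3b* and *Scn4b*. Each was found by its symbol among the 53465 genes of the deposited table. RNA-seq libraries were made from ventricles at E15.5 in 2 genotypes with 4 libraries each. In the genotype called Nrg1GOF here (Rosa26Nrg-1;Nkx5.5-Cre in the sample labels), Cre recombinase turns on an *Nrg1* transgene at the Rosa26 locus, so that the ErbB ligand neuregulin-1 is overproduced. The title of the series and the study's methods give the driver as Nkx2.5-Cre, which is active in the cardiac lineage, so the transgene is on in the cells of that lineage rather than at the endogenous sites of *Nrg1*. The other genotype is labelled WT, with no allele or treatment named, and the series' design text gives 1 ventricle for a replicate.

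Sodium channels open when the membrane depolarises, and the inward sodium current drives the upstroke of the action potential in working myocardium and in the conduction system. Many alpha genes are best known from neurons (*Scn1a*, *Scn2a*, *Scn3a*, *Scn8a*), sensory neurons (*Scn9a*, *Scn10a*, *Scn11a*) and skeletal muscle (*Scn4a*), whereas *Scn7a* encodes a relative that senses extracellular sodium and is not a typical voltage-gated channel. The beta subunits are single-pass membrane proteins with an immunoglobulin domain that alter the gating and the surface amount of the alpha subunit, and *Scn4b* is also known from the ventricular conduction system.

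Library totals ranged from 18754259 to 26786039 counts in 7 libraries, and Nrg1GOF library 4 held 8038641. WT libraries 1 and 2 and WT libraries 3 and 4 formed close pairs that the labels do not explain. Deviations from the group mean correlated at 0.112 and 0.234 within these pairs, at -0.600 to -0.571 between them and at -0.516 to -0.159 in Nrg1GOF. Chi-square per degree of freedom over gene counts was 7.75 and 3.94 within the WT pairs and 29.4 to 35.4 between them. Among Nrg1GOF libraries it was 4.36 (libraries 2 and 4) to 25.5, so a low value is not particular to the WT pairs. No libraries were as close as sampling noise alone would make them, and none were merged. *Nrg1* was at 59.7 to 63.7 CPM (the count scaled by the adjusted library size) in Nrg1GOF and at 3.07 to 4.47 CPM in WT. Nothing in the labels says whether the replicates came from separate litters, and p values measure the spread between these libraries. In bulk tissue, a change in the number of cells of a type and a change in RNA per cell cannot be told apart.

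Of the 8 genes, 7 had enough counts to be tested, and 4 of these were higher in Nrg1GOF: *Scn3b*, *Scn4b*, *Scn2b* and *Scn10a*. None was called lower. The count fell to 2 without Nrg1GOF library 2, without WT library 4 and when each close pair of WT libraries was summed. A gene is described as called, or as having risen or fallen, when its adjusted p was under 0.05 in the quasi-likelihood test of edgeR, with adjustment over all 15580 tested genes. Of all tested genes, 28.7% were called, 15.9% higher (2474 genes) and 12.8% lower (1993 genes). Scaling by library totals instead gave 2874 higher and 1521 lower. In each of the 4 called members every Nrg1GOF library lay above every WT library in CPM from rounded counts. Such a separation was seen in 16.6% of all tested genes, and in 30.7% when either direction is taken. For *Scn10a* the separation rests on the rounding, as Nrg1GOF library 4 falls below WT library 3 when the counts are scaled as deposited. The median log2 fold change of the 7 tested members was 0.62, against -0.01 for all tested genes. *Scn4b* passed the filter on low counts through its Nrg1GOF libraries alone, so the counts over members describe the genes and are no support for a trend among them.

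**Figure D1:**
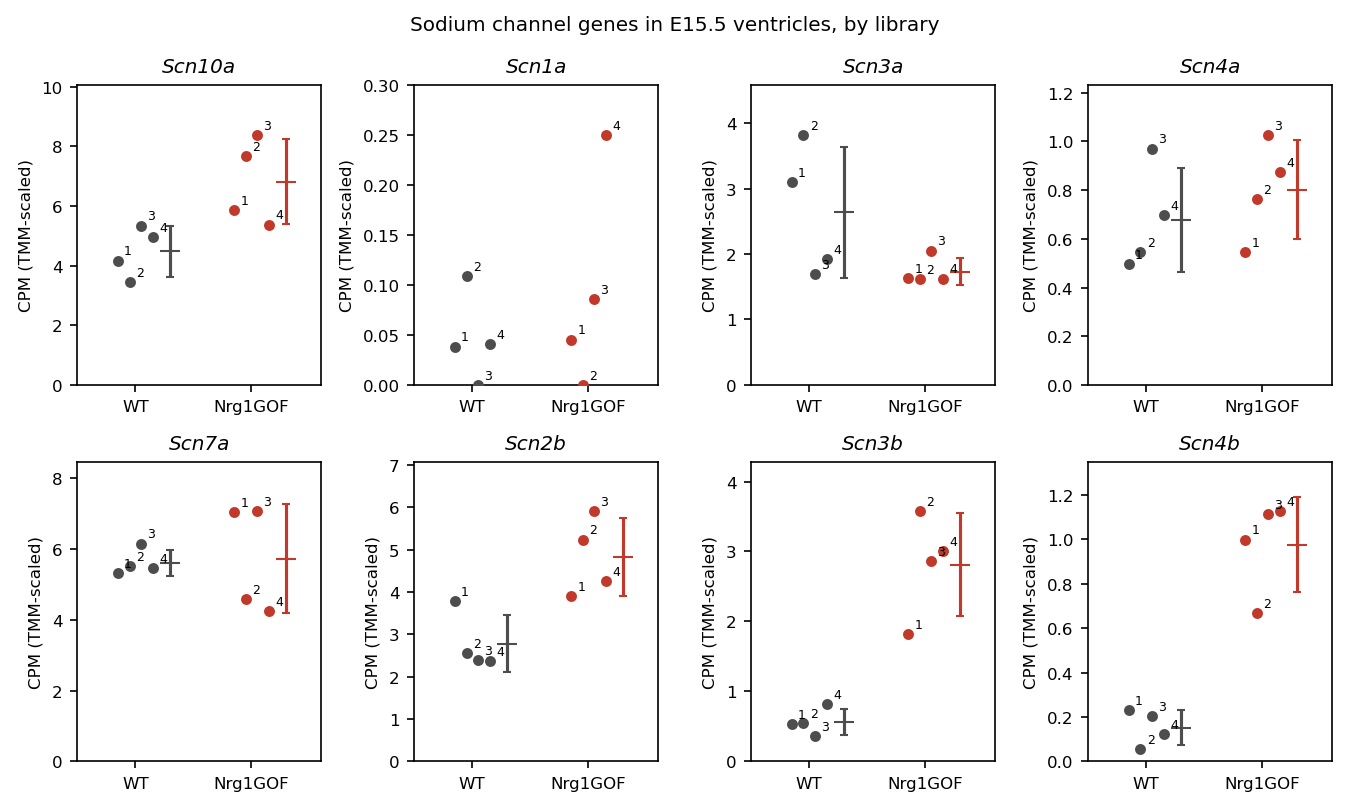
Level of each of the 8 genes in CPM (linear axis from 0) in the 4 WT (grey) and 4 Nrg1GOF (red) libraries, with the replicate number beside each point and, for tested genes, the mean with its SD. The Nrg1GOF points lie above all WT points for *Scn10a*, *Scn2b*, *Scn3b* and *Scn4b*, and *Scn1a* stayed at 0.25 CPM or less in each library. Levels are from rounded counts, and the separation of *Scn10a* rests on that rounding.

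Among the members, the beta subunit genes *Scn3b* and *Scn4b* showed the steepest differences. *Scn3b* (ENSMUSG00000049281, GRCm38 chromosome 9, 40269217 to 40291618, plus strand) encodes the beta3 subunit. It had 40, 75, 67 and 24 counts in Nrg1GOF libraries 1 to 4 and 14, 10, 9 and 20 counts in WT libraries 1 to 4. In CPM these were 1.82, 3.57, 2.87 and 3.0 in Nrg1GOF and 0.54, 0.55, 0.36 and 0.82 in WT. The lowest Nrg1GOF library was thus above the highest WT library by more than the whole WT range. The group levels were 2.81 ± 0.73 and 0.57 ± 0.19 CPM (SD, n = 4 per genotype), and the log2 fold change was 2.29 (SE 0.31, 95% interval 1.61 to 2.98, edgeR quasi-likelihood adjusted p = 0.000546). It was the member with the smallest adjusted p. Its counts, like those of *Scn4b*, were whole numbers (here and elsewhere to within 0.03) in 8 of 8 libraries, whereas RSEM gives fractions where it divides a read between genes.

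*Scn4b* (ENSMUSG00000046480, chromosome 9, 45138395 to 45154152, plus strand) encodes the beta4 subunit, which binds the alpha subunit through a disulphide bond. The counts were 22, 14, 26 and 9 in Nrg1GOF and 6, 1, 5 and 3 in WT, so that WT was at or near the lower end of what these libraries can show. In CPM the values were 1.00, 0.67, 1.11 and 1.13 in Nrg1GOF and 0.23, 0.05, 0.20 and 0.12 in WT. The groups did not overlap. Levels of 0.98 ± 0.21 and 0.15 ± 0.08 CPM (SD, n = 4 per genotype) gave a log2 fold change of 2.56 (SE 0.39, 95% interval 1.69 to 3.44, adjusted p = 0.0011). Summed over libraries, 71 counts against 15 gave a ratio of 5.96 after division by library size, with an exact 95% interval of 3.38 to 11.2 that covers counting error alone.

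*Scn2b* (ENSMUSG00000070304, chromosome 9, 45117782 to 45130070, plus strand) encodes beta2, the other disulphide-linked subunit, and lies 8.33 kb upstream of *Scn4b* on the same strand. Its level was 3.90, 5.24, 5.90 and 4.25 CPM in Nrg1GOF and 3.78, 2.56, 2.39 and 2.38 CPM in WT. WT library 1 came close to the lowest Nrg1GOF library and stood apart from the other WT libraries. The expected counts of *Scn2b* were whole in 3 of 8 libraries, and none of its 4597 windows of 60 bases matched *Scn4b* with up to 2 mismatches, so the gene that shared its reads was not identified. The group levels of 4.82 ± 0.92 and 2.78 ± 0.68 CPM (SD, n = 4 per genotype) corresponded to a log2 fold change of 0.80 (SE 0.21, 95% interval 0.33 to 1.27, adjusted p = 0.0174). The call was lost without Nrg1GOF library 2 (adjusted p = 0.0538) and without WT library 4 (adjusted p = 0.0503), with log2 fold changes of 0.76 and 0.73. It was also lost when each close pair of WT libraries was summed to 1 sample (0.78, adjusted p = 0.0668).

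**Figure D2:**
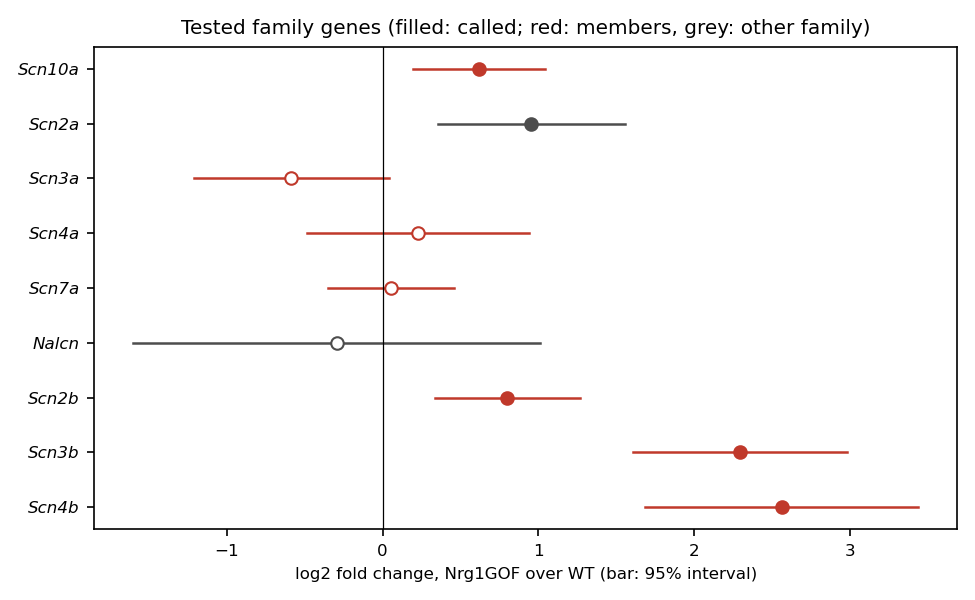
Log2 fold change of Nrg1GOF over WT for the tested genes of the sodium channel family that are reported here, with bars for the 95% interval; filled points were called, red marks the members and grey the other family genes. The largest values are those of *Scn4b* at 2.56 and *Scn3b* at 2.29, and the points of *Scn7a*, *Scn4a* and *Scn3a* are open.

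Within the alpha family, *Scn10a* (ENSMUSG00000034533, chromosome 9, 119608456 to 119719322, minus strand) was the only one of the members that was called. Its channel resists tetrodotoxin and carries current in sensory neurons. The level was 5.85, 7.67, 8.38 and 5.38 CPM in Nrg1GOF and 4.17, 3.44, 5.34 and 4.96 CPM in WT. Nrg1GOF library 4 lay just above WT library 3 only because counts were rounded. Scaled from the expected counts as deposited (42.67 and 132.29), Nrg1GOF library 4 falls just below WT library 3, so the groups are not separate. Levels of 6.82 ± 1.44 and 4.47 ± 0.85 CPM (SD, n = 4 per genotype) gave a log2 fold change of 0.62 (SE 0.19, 95% interval 0.20 to 1.04, adjusted p = 0.0342). The call was lost without Nrg1GOF library 2 or 3 and without WT library 1, 2 or 4 (adjusted p = 0.0999, 0.0867, 0.0758, 0.0725 and 0.0520), and when each close pair of WT libraries was summed to 1 sample (adjusted p = 0.114).

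The counts of *Scn10a* are also uncertain. They were not whole numbers in any library, so part of its reads was divided with other genes, and the share of the *Scn10a* difference that depends on this division was not tested.

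*Scn3a* (ENSMUSG00000057182, chromosome 2, 65457118 to 65567627, minus strand), a channel gene of the embryonic brain, was the member with a negative log2 fold change, but it was not called. The level was 1.63, 1.62, 2.05 and 1.63 CPM in Nrg1GOF and 3.10, 3.82, 1.70 and 1.93 CPM in WT. WT libraries 1 and 2 were high, whereas WT libraries 3 and 4 lay within the range of Nrg1GOF. The log2 fold change was -0.59 (SE 0.28, 95% interval -1.21 to 0.04, adjusted p = 0.153). With a library left out it ranged from -0.75 (without WT library 3) to -0.36 (without WT library 2), with no call.

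Its neighbour *Scn2a*, not among the 8, lies 53.1 kb away on the opposite strand and shares many windows with it. From rounded counts *Scn2a* was at 1.63, 1.14, 1.24 and 0.75 CPM in Nrg1GOF and 0.61, 0.71, 0.65 and 0.57 CPM in WT. All Nrg1GOF libraries were above all WT libraries only through this rounding. Scaled from the expected counts as deposited, Nrg1GOF library 4 (5.57 counts) falls below WT library 2 (13.3 counts). The log2 fold change of *Scn2a* was 0.95 (SE 0.27, adjusted p = 0.0244), and with the replicate number as a block it was 0.90 (adjusted p = 0.0571). *Scn2a* was not called in 5 of the 8 comparisons that left out a library. Windows of 60 bases with no more than 2 differences to *Scn2a* made up 10.8% of the longest *Scn3a* transcript, against 8.11% for *Scn9a* and 6.69% for *Scn1a*, so *Scn2a* is not the sole gene with which reads could be divided. Neither *Scn3a* nor *Scn2a* had a whole count in any library. Summed to 1 gene, *Scn3a* and *Scn2a* were at 3.27, 2.76, 3.25 and 2.38 CPM in Nrg1GOF and 3.71, 4.53, 2.35 and 2.50 CPM in WT, and the sum was not called (log2 fold change -0.14, SE 0.24, adjusted p = 0.711).

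*Scn7a* (ENSMUSG00000034810, chromosome 2, 66673425 to 66784914, minus strand) was at 7.03, 4.57, 7.06 and 4.25 CPM in Nrg1GOF and 5.31, 5.51, 6.15 and 5.45 CPM in WT. The Nrg1GOF libraries fell on both sides of the WT libraries, with an SD of 1.53 against 0.37 CPM. The log2 fold change of 0.05 (SE 0.18, 95% interval -0.35 to 0.46, adjusted p = 0.864) leaves room for a change of either sign, and it turned to -0.06 without Nrg1GOF library 1 and to -0.05 without Nrg1GOF library 3. *Scn7a* counts were whole in 8 of 8 libraries, and none of its 7279 windows matched *Scn3a*.

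*Scn4a* (ENSMUSG00000001027, chromosome 11, 106318592 to 106353288, minus strand) had 12, 16, 24 and 7 counts in Nrg1GOF and 13, 10, 24 and 17 counts in WT. In CPM this was 0.54, 0.76, 1.03 and 0.88 against 0.50, 0.55, 0.97 and 0.70, and the groups overlapped almost fully. The log2 fold change was 0.22 (SE 0.32, 95% interval -0.49 to 0.94, adjusted p = 0.652), and with a library left out it ranged from 0.06 (without Nrg1GOF library 3) to 0.45 (without WT library 3), with no call. A difference of the size seen for *Scn3b* lies outside this interval.

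*Scn1a* (ENSMUSG00000064329, chromosome 2, 66270778 to 66440840, minus strand) was the member that could not be tested. Its expected counts were 1.33, 0, 2.04 and 2.18 in Nrg1GOF and 1, 2, 0 and 1.09 in WT, each below 3 counts, the level below which no fold change is given here. Of the alpha genes outside the 8, *Scn8a*, *Scn9a* and *Scn11a* were likewise too low to be tested, with 0 to 11 counts per library. *Nalcn*, which encodes a sodium leak channel, averaged 0.35 ± 0.20 CPM in Nrg1GOF and 0.48 ± 0.36 CPM in WT (SD, n = 4 per genotype) and was not called (log2 fold change -0.29, SE 0.58, adjusted p = 0.754).

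Levels were next compared between genes after division by the merged exon length (RPKM, CPM per kb of merged exons). The highest members in WT were *Scn7a* at 0.764 ± 0.0506, *Scn2b* at 0.597 ± 0.145 and *Scn10a* at 0.562 ± 0.106 RPKM (SD, n = 4 per genotype), of which *Scn2b* and *Scn10a* did not differ beyond their spread. *Scn3a* (0.211 ± 0.0802), *Scn3b* (0.104 ± 0.0345), *Scn4a* (0.0962 ± 0.0303) and *Scn4b* (0.0306 ± 0.0159) came next, and *Scn3b* and *Scn4a* were within an SD of each other. In Nrg1GOF the order of the members was *Scn2b* (1.04 ± 0.197), *Scn10a* (0.856 ± 0.180), *Scn7a* (0.781 ± 0.208), *Scn3b* (0.515 ± 0.134), *Scn4b* (0.196 ± 0.0429), *Scn3a* (0.139 ± 0.0171) and *Scn4a* (0.114 ± 0.0288). There, *Scn2b*, *Scn10a* and *Scn7a* each lay within an SD of the next, and so did *Scn3a* and *Scn4a*. *Scn3b* and *Scn4b*, low in the WT order, had both passed *Scn3a*, and *Scn1a* was the lowest member in both genotypes.

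**Figure D3:**
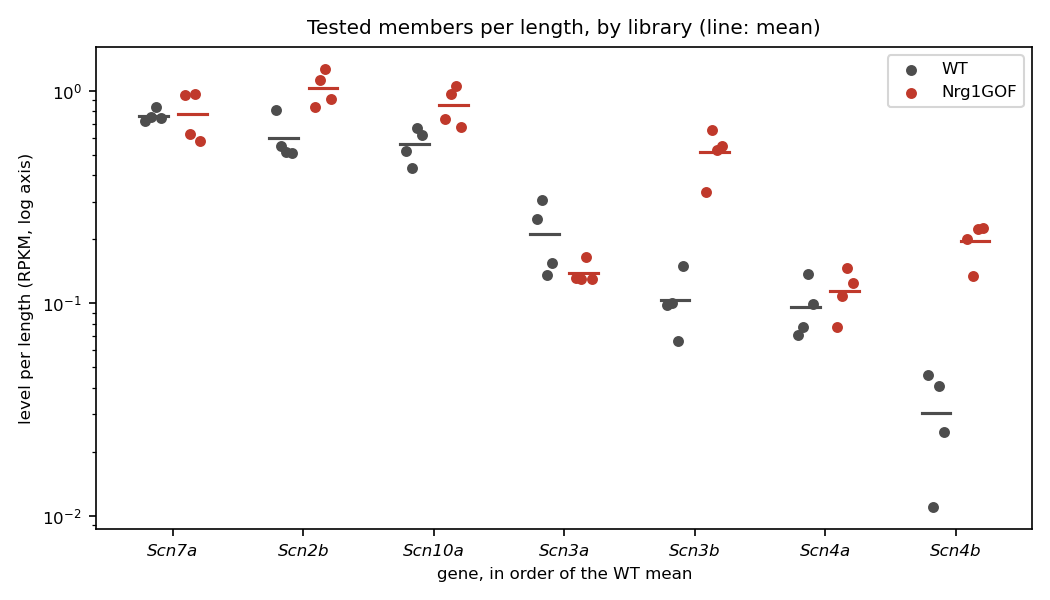
Level per length in RPKM (log axis) of the 7 tested members in the 4 WT (grey) and 4 Nrg1GOF (red) libraries, in order of the WT mean, with a line at each mean. The red points of *Scn3b* and *Scn4b* lie far above the grey ones, at means of 0.515 and 0.196 against 0.104 and 0.0306 RPKM, while those of *Scn7a* and *Scn4a* overlap.

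The proteins that bind or anchor the channel were compared next. Of 14 channel partner genes, all of which were tested, 1 was called higher and 4 lower, with a median log2 fold change of -0.16. *Fgf12*, a fibroblast growth factor homologous factor that stays in the cell and binds the tail of the alpha subunit, was at 3.77, 2.90, 3.93 and 2.25 CPM in Nrg1GOF and 1.26, 1.09, 0.16 and 0.41 CPM in WT. The groups did not overlap, but WT libraries 1 and 2 were above WT libraries 3 and 4. Its log2 fold change was 2.17 (SE 0.48, adjusted p = 0.00804). *Fgf13*, the most abundant of the 4 such factors per length, averaged 75.4 ± 2.43 CPM over the WT libraries and 62.9 ± 3.73 CPM over the Nrg1GOF libraries (SD, n = 4) and fell by 0.26 on the log2 scale (SE 0.06, adjusted p = 0.00637).

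*Gpd1l*, whose product influences the amount of channel at the membrane, fell by 0.41 (SE 0.05, adjusted p = 0.000417). *Pkp2*, a desmosomal protein of the intercalated disc, fell by 0.28 (SE 0.06, adjusted p = 0.00876). The ankyrin genes *Ank2* and *Ank3* had log2 fold changes of -0.24 and 0.22 and were not called (adjusted p = 0.0798 and 0.199). *Fgf13* and *Pkp2*, also called lower, and the ankyrin genes were named after their values were seen, and so was *Slc8a1*, described with the transport genes.

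**Figure D4:**
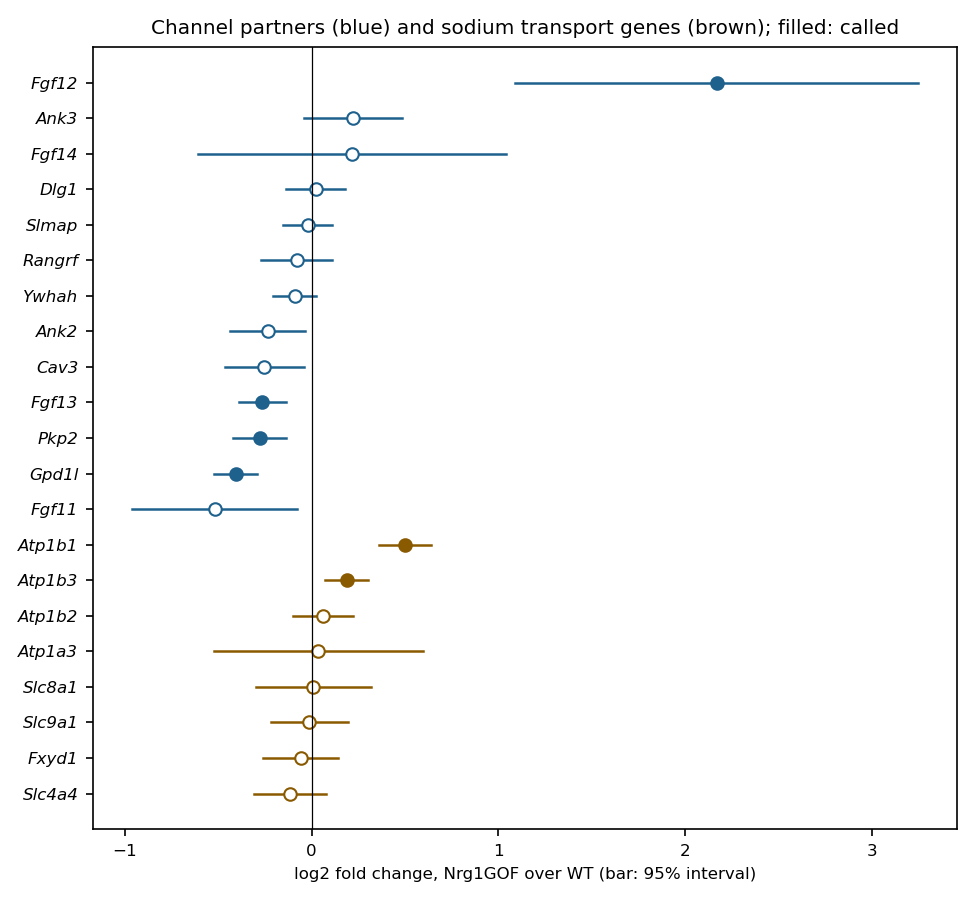
Log2 fold change of Nrg1GOF over WT, with 95% intervals, for channel partner genes (blue) and sodium transport genes (brown) that are reported here; filled points were called. *Fgf12* stands apart at 2.17, and the called transport genes lie between 0.19 and 0.50.

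Genes that move sodium by pumps and exchangers were measured beside the channels. Of 10 such genes, 4 were called higher and none lower, with a median of 0.05. The count was 2 without Nrg1GOF library 1, without Nrg1GOF library 2 and without WT library 3, and also 2 with no filter on low counts. *Atp1b1*, the beta1 subunit of the sodium-potassium pump, averaged 475 ± 32.2 CPM over the WT libraries and 672 ± 26.9 CPM over the Nrg1GOF libraries (SD, n = 4) and rose by 0.50 on the log2 scale (SE 0.06, adjusted p = 0.000337). The sodium-calcium exchanger gene *Slc8a1* averaged 638 CPM over the WT libraries and 642 CPM over the Nrg1GOF libraries, with SDs of 104.6 and 102 CPM, and was not called (log2 fold change 0.01, SE 0.14, adjusted p = 0.969).

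Marker genes of tissues in which the members are known were examined in the same libraries. The 5 ventricular markers summed to 38897 to 41262 CPM in WT and 29476 to 37224 CPM in Nrg1GOF, and 3 of the 5 were called lower. The 7 atrial markers summed to 1030 to 1168 CPM in WT and 1667 to 1833 CPM in Nrg1GOF, with 4 called higher, and none was at 0. Most of this sum was *Myl4*, which averaged 862 CPM in WT and 1312 CPM in Nrg1GOF, and *Sln*, *Nr2f1* and *Stard10* were not called. The 8 conduction system markers summed to 354 to 383 CPM in WT and 517 to 556 CPM in Nrg1GOF, with 7 called higher and 1, *Kcne1*, lower. Both sums thus differed between the genotypes in the same direction as *Scn3b*, *Scn4b*, *Scn2b* and *Scn10a*, and so did the skeletal muscle sum given below. Within a genotype the sums were not compared with these 4 genes, and their part in these results was not tested.

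The 9 neuronal markers summed to 5.78 to 6.75 CPM in WT and 5.86 to 7.66 CPM in Nrg1GOF, and 0 of the 4 that could be tested by edgeR were called. *Chrna3* was at 0.14 CPM or less in each library. The 8 glial markers summed to 25.6 to 32.6 CPM in WT and 20.1 to 30.1 CPM in Nrg1GOF, with *Cdh19* called higher and *Fabp7* lower among 4 tested. Of 7 skeletal muscle markers *Myod1* and *Pax7* were at 0 in all libraries, and 3 could be tested. The 7 summed to 5.61 to 9.13 CPM in WT and 12.8 to 14.6 CPM in Nrg1GOF. *Myh8*, a myosin heavy chain of developing muscle, held most of this sum, with means of 4.70 and 11.2 CPM, and was the 1 gene called (higher), whereas *Myog* averaged 0.61 CPM in WT and 0.64 CPM in Nrg1GOF. Smooth muscle and pericyte markers summed to 1289 to 1483 CPM in WT and 946 to 1046 CPM in Nrg1GOF. Most of this sum was *Acta2*, which averaged 1084 CPM in WT and 666 CPM in Nrg1GOF and fell together with *Rgs5*, while *Cspg4* and *Pdgfrb* rose. Endothelial markers summed to 840 to 874 CPM in WT and 858 to 896 CPM in Nrg1GOF (1 of 4 called higher). Within WT, libraries 1 and 2, in which *Scn3a* was high, also had the higher sums of the atrial, conduction, skeletal muscle and smooth muscle lists. Their ventricular, glial and endothelial sums were lower than those of WT libraries 3 and 4, and the neuronal sums overlapped. None of these sums was tested against the members.

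The genes beside the members were compared as well. The nearest protein-coding gene on each side of the 8 members gave 13 genes that were not members, of which 5 could be tested. *Scn2a* was the 1 called higher and none was called lower. Next to *Scn3b*, *Gramd1b* at a distance of 1.615 kb was not called (log2 fold change 0.42, SE 0.19, adjusted p = 0.130), nor was *Zfp202* (-0.08, SE 0.13, adjusted p = 0.707). Beside the *Scn2b* and *Scn4b* pair, *Jaml* and *Tmprss4* were at 0.11 CPM or less on average in both genotypes. *Scn2b* overlaps the opposite-strand gene *Gm10684* and *Scn3b* overlaps *Gm47266*, both listed at 0 counts in all libraries, while no annotated gene overlaps *Scn4b* or *Scn10a*.

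Genes most like each called member across the 8 libraries were listed as a description, by Pearson's r of log2 CPM among protein-coding genes with an average log2 CPM of at least 1. The 2 genotypes differ, so this likeness includes the difference between them. They were *Grk6*, *Eva1b* and *Tnfrsf23* for *Scn3b* (0.995, 0.990 and 0.990), and *Plcb3* and *Smim1* for *Scn4b* (0.989 and 0.986). For *Scn2b* they were *Susd4*, *Mypop* and *Tnks1bp1* (0.980, 0.975 and 0.969), and for *Scn10a* *Eno2* and *Fuk* (0.974 and 0.968).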

How the data were processed

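The authors deposited RSEM expected counts (estimated counts of reads per gene, not scaled for depth or length), made on GRCm38, where the name of the table gives Ensembl release 91. Cutadapt and RSEM 1.3.1 are given in the submitters' processing notes, and the aligner and strand setting are not given in the sources used here. Poly(A) libraries were directional, from 100 ng of RNA, with single reads of 60 bases. Counts were rounded, genes were kept with filterByExpr (10 counts in a library of median size, 0.449 CPM, in 4 libraries), libraries were TMM-scaled, and the genotypes were compared in edgeR 4.0.16 (R 4.3.3) with its quasi-likelihood F-test, genotype as the sole term, with Benjamini-Hochberg adjustment over 15580 genes. The SE was taken as the size of the log2 fold change over the root of F. CPM is on the TMM-scaled library size, so 3 counts stand for 0.115 to 0.375 CPM, a floor for counting error only. Symbols were matched for 53360 of 53465 identifiers. Coordinates and lengths came from GENCODE M21, also on GRCm38 but later than the counting annotation.

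Alternatives covered the scaling, the filter, DESeq2, limma-voom, the likelihood ratio test, a replicate block, thinning and leaving out libraries.

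The members and lists were chosen with earlier results of these data known. All 8 members are named, with other family genes and, from the partner and transport lists, the called genes with the 3 and 2 largest changes, except that results of some genes, and the subunit shares that rest on them, are not reported here. On counts simulated from these libraries, 62 of 86 genes changed by a log2 fold of 1 and 109 of 114 changed by 2 were recovered, with 11 false calls among 182. The simulation changed 200 of 15580 genes, far fewer than were called in the data. It drew libraries without the WT pairs and took genes of all levels. These rates therefore need not hold for the real comparison or for members with low counts.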

Additional observations from a re-analysis of the deposited data

Results flagged for a closer look

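By Dixon's test at the 95% level, 3 of the 30 groups of 4 libraries examined for the sodium channel family contained a library far from the rest, and 1.5 would do so by chance alone. The level of *Scn2b* in WT library 1 was 3.78 CPM, against 2.38 to 2.56 CPM in the other WT libraries, a gap of 0.867 of the range. *Scn3a* reached 2.05 CPM in Nrg1GOF library 3, against 1.62 to 1.63 CPM in its group, a gap of 0.967 of the range. It rested on 47.56 expected counts, against 13.32 to 35.59 in its group, and the test takes no account of counting error. The level of *Scn9a* in WT library 1 was 0.34 CPM, against 0 to 0.05 CPM in the other WT libraries (0.841 of the range), and rested on 9.25 expected counts.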

How the results depend on the processing

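Among 275 recomputed values, 225 had the direction and call of the reported one or, for counts, were within 1.5 times of it. *Scn3b* (log2 fold change 2.13 to 2.53) and *Scn4b* (2.34 to 2.81) were called under each alternative in which they could be fitted. *Scn4b* and *Scn4a* dropped out under a minimum of 1 CPM and after thinning to the smallest total. Across the 8 comparisons that each left out a library, all genes called ranged from 3239 to 4261, members called from 2 to 4 (2 without Nrg1GOF library 2 or WT library 4), other family genes from 0 to 3, channel partners from 5 to 6 and sodium transport genes from 2 to 4. In these, *Scn10a* ranged from 0.51 to 0.71, *Scn2b* from 0.69 to 0.99 and *Scn7a* from -0.06 to 0.16 (-0.059 without Nrg1GOF library 1, -0.054 without Nrg1GOF library 3). *Nalcn* ranged from -0.60 to 0.24, the last without WT library 2. With the WT pairs summed, which leaves 2 WT samples, 2464 genes, 2 members, 0 other family genes, 3 partners and 2 transport genes were called, and *Scn10a* (0.62, adjusted p = 0.114) and *Scn2b* (0.78, adjusted p = 0.0668) lost their call. An adjusted p under 0.01 left 2535 genes, 2 members, 0 other family genes and 2 transport genes, and a minimum log2 change of 1 left 724, 2, 0 and 0, with 1 partner. With no filter on low counts, 1 other family gene and 2 transport genes were called, and after thinning 1 other family gene. Summing leaves fewer samples and the stricter thresholds fewer calls by construction, and the cause of the other losses was not tested.

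Libraries with the same replicate number correlated at 0.0492 to 0.199 in their deviations from the group means, so the number was not taken to pair them, and 4 of 8 libraries correlated best with their own number. A replicate block in the fit gave 4524 genes and 4 members called, and 1 other family gene in place of 2 (*Scn2a* was lost), and it ended the call of no member. The sum of *Scn2a* with *Scn3a* was chosen after seeing the data. *Scn1a* was below 3 counts in all libraries, and *Scn4b* had 1 to 6 counts in WT.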
